A study of Homo sapiens with 6 samples.

Results

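The alcohol dehydrogenase family was followed in the human gastric cancer line YCC3 after silencing of CTNNB1. The members are ADH1A, ADH1B, ADH1C, ADH4, ADH5, ADH6 and ADH7, selected on their gene symbols, and they make up 7 of 18417 genes tested. For a gene with several array rows the brightest row over the 6 arrays was to be used, but each of these 7 genes had exactly 1 row with its symbol alone, so the signal decided nothing. The family as such was chosen by the measured change of ADH1C, already known from these same arrays to lie among the largest falls. Its change is therefore given as a description, and its test is no independent evidence.

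Each group had 3 arrays, from cells transfected with CTNNB1 siRNA or with a non-targeting control siRNA, and RNA was collected 48 hours later. The small duplex RNA leads to the breakdown of its matching mRNA, and CTNNB1 encodes beta-catenin, the transcriptional effector of Wnt signalling. All groups were grown in serum-containing medium and transfected alike, and the labels do not give the siRNA sequences. They call the samples biological replicates without saying that cultures or days were separate, so the p-values rest on the spread among 6 samples that may be technical. YCC3 is a single tumour line, and no untransfected cells were compared here.

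Alcohol dehydrogenases are zinc enzymes that use NAD to oxidise alcohols to aldehydes, which aldehyde dehydrogenases then turn into acids. ADH1A, ADH1B and ADH1C form class I, the near-identical enzymes that clear most ethanol in the liver. ADH4 is the class II enzyme of liver, ADH5 the ubiquitous class III enzyme that removes formaldehyde bound to glutathione, ADH6 belongs to class V, and ADH7 is the class IV enzyme of the upper digestive tract, active on retinol and ethanol. The genes lie side by side in a single cluster on chromosome 4, in the order ADH5, ADH4, ADH6, ADH1A, ADH1B, ADH1C and ADH7.

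The 250 bases before the start sites of the class I genes, of ADH6 and of ADH4 are printed because the first 4 hold the members that fell and the class I relatives of ADH1C, and ADH4 holds letters bound by TCF/LEF factors, the DNA-binding partners of beta-catenin. The sequences are from RefSeq (GRCh38.p14), 5′ to 3′ along the gene, and the promoter table held all 7 members. Capitals mark the E-box CACGTG, which USF factors bind, and the TCF/LEF word CTTTGNN, in which each N is A or T, on either strand.
ADH1A (chr4:99290986-99291235, minus strand): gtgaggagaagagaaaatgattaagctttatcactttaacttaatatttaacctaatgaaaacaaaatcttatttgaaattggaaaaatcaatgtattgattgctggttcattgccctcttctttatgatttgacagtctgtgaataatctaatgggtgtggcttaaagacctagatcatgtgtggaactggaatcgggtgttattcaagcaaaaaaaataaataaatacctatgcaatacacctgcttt
ADH1B (chr4:99321402-99321651, minus strand): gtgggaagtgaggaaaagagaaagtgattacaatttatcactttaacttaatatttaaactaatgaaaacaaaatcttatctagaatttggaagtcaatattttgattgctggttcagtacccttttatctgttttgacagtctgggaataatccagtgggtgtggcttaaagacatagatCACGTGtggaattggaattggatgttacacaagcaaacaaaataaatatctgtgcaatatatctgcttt
ADH1C (chr4:99352747-99352996, minus strand): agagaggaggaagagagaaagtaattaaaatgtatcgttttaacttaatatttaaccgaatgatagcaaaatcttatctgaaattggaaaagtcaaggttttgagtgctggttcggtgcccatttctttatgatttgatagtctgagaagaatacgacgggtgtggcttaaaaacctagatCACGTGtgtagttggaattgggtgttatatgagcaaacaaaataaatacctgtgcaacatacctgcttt
ADH6 (chr4:99219247-99219496, minus strand): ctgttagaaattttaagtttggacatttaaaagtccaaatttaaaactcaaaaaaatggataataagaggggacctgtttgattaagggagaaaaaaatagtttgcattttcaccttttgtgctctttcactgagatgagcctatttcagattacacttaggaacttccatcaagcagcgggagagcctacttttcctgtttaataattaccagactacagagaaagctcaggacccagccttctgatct
ADH4 (chr4:99144298-99144547, minus strand): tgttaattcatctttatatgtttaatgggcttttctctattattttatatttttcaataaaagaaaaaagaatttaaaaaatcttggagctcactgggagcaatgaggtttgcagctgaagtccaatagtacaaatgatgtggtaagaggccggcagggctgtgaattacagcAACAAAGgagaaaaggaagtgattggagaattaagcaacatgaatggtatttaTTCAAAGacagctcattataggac

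The class I windows were close copies of each other. ADH1C was identical to ADH1A over 81.5% of aligned positions and to ADH1B over 81.5%, and ADH1A to ADH1B over 82.2%. The other 18 pairs of members reached 45.5% to 55.0%. ADH1B and ADH1C held CACGTG, 69 bases before the start, where ADH1A did not, and 6.34% of all 35116 promoter windows of this length held it. The E-box was chosen for this search after the sequences had been read.

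This TCF/LEF word did not occur in the windows of ADH1A, ADH1B, ADH1C, ADH5 or ADH6. ADH4 held AACAAAG 77 bases and TTCAAAG 24 bases before its start. ADH7, whose windows are not printed, held CTTTGAT 159 bases before its first listed start and CTTTGAA 18 bases before its second. The TCF/LEF word occurred in 12% of all windows. The C/EBP word TTGCNNAA, searched on both strands, occurred in 9.05% of windows, and among the members in those of ADH4, ADH5 and ADH7. A match describes letters only, and a window without one says nothing of the factor. The members were also poor in G and C apart from ADH5: the share was 31.6% for ADH1A, 32.4% for ADH1B, 35.6% for ADH1C and 36.4% for ADH6, where ADH5 and the median window had 58%. ADH1C held 6 CG pairs and ADH1A, ADH1B and ADH6 held 1 each.

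Values are log2 RMA signals, in which probe brightness is made comparable between arrays and 1 unit is a doubling. They differ between genes also through their probes, so levels are compared between arrays and not between genes. Array medians over the genes tested lay between 6.53 and 6.57. The targeted transcript checked the labels: CTNNB1 measured 11.80, 11.81 and 11.90 in control replicates 1 to 3 and 10.94, 11.06 and 11.20 with CTNNB1 siRNA, a change of -0.77 ± 0.10 (SE; limma, adjusted p = 0.00267). The signal of CTNNB1 was thus lowered by less than 1 log2 unit, a partial reduction. IFIT1, an interferon-induced RNA-binding protein gene, was higher with CTNNB1 siRNA by 4.27 ± 0.11 log2 units (limma, adjusted p = 5.44e-08). The part of an interferon response in the dehydrogenase values was not tested.

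Among the alcohol dehydrogenases, ADH1C and ADH6 fell after CTNNB1 silencing, none rose, and 5 of 7 did not pass the threshold of 0.05 on limma's adjusted p. Over all genes tested 4.72% passed, 2.65% downward and 2.07% upward. The balance of all calls, 488 falls and 382 rises, became 407 falls and 486 rises under cyclic loess scaling, where ADH1C and ADH6 still fell. Apart from ADH1C, whose fall led to the choice of the family, 1 of the other 6 members fell. The median change of the 7 genes was -0.20 log2 units, against 0.01 over all genes tested. All 7 changes were below 0, as were 48.8% of all changes. Those of ADH1A, ADH5 and ADH7 were close to 0, and that of ADH5 turned positive under quantile normalization and cyclic loess. The median and the signs include ADH1C, whose fall led to the choice, so they are no independent evidence of a fall of the family.

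**Figure D1:**
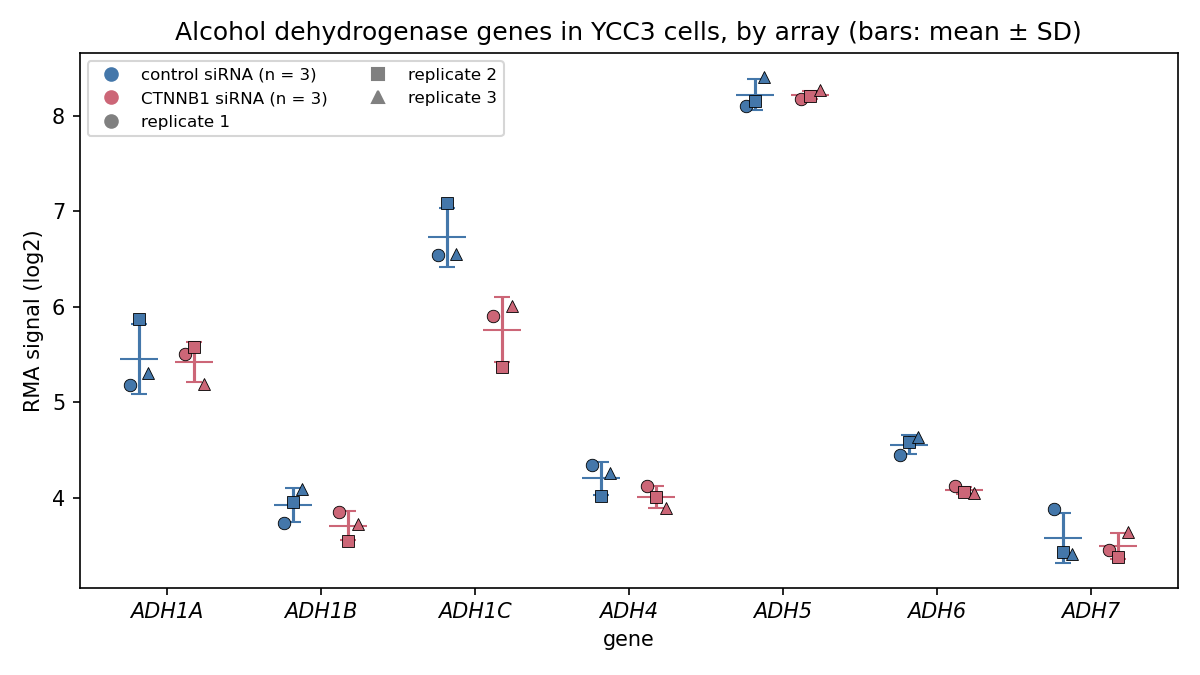
RMA signal on the log2 scale (vertical axis) of the 7 alcohol dehydrogenase genes (horizontal axis), with 1 point per array, blue for control siRNA and red for CTNNB1 siRNA, marker shape for the replicate number, and bars for mean ± SD of 3 arrays. The groups are apart for ADH1C and ADH6 and overlap for the other 5 genes.

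ADH1C, a class I gene expressed in stomach as well as liver, measured 6.54, 7.08 and 6.56 in control replicates 1 to 3. With CTNNB1 siRNA it measured 5.90, 5.37 and 6.01 in replicates 1 to 3. The groups did not overlap, with a gap of 0.53 log2 units between the nearest arrays, and groups without overlap were seen in 26.0% of all genes. Control replicate 2 was the highest and CTNNB1 siRNA replicate 2 the lowest array. The mean went from 6.73 ± 0.31 to 5.76 ± 0.34 (SD, n = 3 each), a change of -0.97 ± 0.19 (SE) log2 units with a 95% confidence interval of -1.39 to -0.55. This is 48.9% less signal, the 9th largest fall among all genes tested, with an adjusted p of 0.0185 in limma. Without CTNNB1 siRNA replicate 1 the change was -1.04 and the adjusted p 0.0680, so that the call was lost. It was also lost, with an adjusted p of 0.115, where all 33297 rows of the array were tested together. Whether less of this RNA was made in each cell or fewer cells carried it cannot be told apart in bulk RNA.

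The other class I genes did not pass the threshold. ADH1A measured 5.18, 5.87 and 5.31 with control siRNA and 5.50, 5.58 and 5.19 with CTNNB1 siRNA. The groups overlapped, and control replicate 2 lay highest. Its change was -0.03 ± 0.18 (SE; limma, adjusted p = 0.952), with a 95% confidence interval of -0.42 to 0.37. ADH1B, the main ethanol-oxidising gene of liver, measured 3.73, 3.95 and 4.09 with control siRNA and 3.85, 3.54 and 3.72 with CTNNB1 siRNA. These groups overlapped too, and the change was -0.22 ± 0.12 (adjusted p = 0.358), with an interval of -0.49 to 0.05.

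The rows of ADH1C and of the other class I genes are set side by side within each array as a description. ADH1C minus ADH1A was 1.37, 1.21 and 1.25 in control replicates 1 to 3, with an SD of 0.08, although each gene alone varied by 0.31 and 0.37 (SD). With CTNNB1 siRNA the difference was 0.40, -0.21 and 0.82, with an SD of 0.52. ADH1C minus ADH1B was less steady, at 2.81, 3.13 and 2.47 in control replicates 1 to 3. Its SD there was 0.33, where ADH1C alone had 0.31. With CTNNB1 siRNA ADH1C minus ADH1B was 2.05, 1.83 and 2.29, with an SD of 0.23. Because ADH1C was chosen for its fall, lower differences were to be found, and no test of them is given. An exact permutation test of 3 against 3 arrays could not go below 0.1 in any case. Class I transcripts are near-identical, so signal on each row may include RNA of the other class I genes. Probe sequences were not used here.

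**Figure D2:**
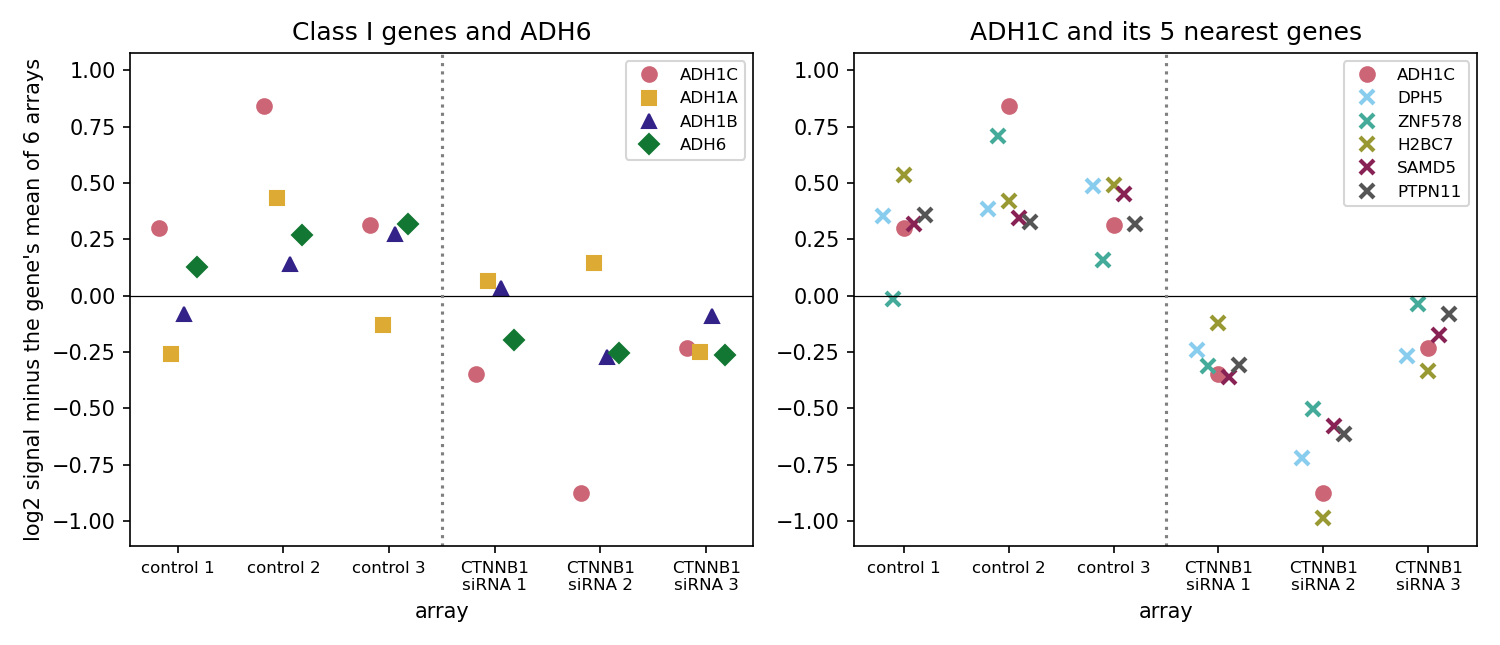
Log2 signal minus the gene's own mean over the 6 arrays (vertical axis) for each array (horizontal axis, control replicates 1 to 3 left of the dotted line and CTNNB1 siRNA replicates 1 to 3 right of it). The left panel shows ADH1C, ADH1A, ADH1B and ADH6, where ADH1A lies above and below 0 in both groups. The right panel shows ADH1C with its 5 nearest genes, which share its low point in CTNNB1 siRNA replicate 2. They were picked for likeness to ADH1C over these same arrays, and that choice favours a shared low point.

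ADH6, a little-studied class V gene expressed in fetal and adult liver, measured 4.44, 4.59 and 4.63 in control replicates 1 to 3 and 4.12, 4.06 and 4.05 with CTNNB1 siRNA. The groups did not overlap, the gap being 0.32 log2 units, and the spread within each was small. The mean went from 4.55 ± 0.10 to 4.08 ± 0.04 (SD, n = 3 each), a change of -0.48 ± 0.10 (SE; limma, adjusted p = 0.0219), with a 95% confidence interval of -0.69 to -0.26. The call was lost with any 1 array left out. The adjusted p was then 0.0548, 0.0659 and 0.0859 without control replicates 1, 2 and 3, and 0.0705, 0.0655 and 0.0501 without CTNNB1 siRNA replicates 1, 2 and 3, with changes from -0.53 to -0.44. It was also lost with all rows tested together (adjusted p = 0.0879).

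The signal of ADH6 was dim. Olfactory receptor genes, which are not expected in gastric epithelium, served to describe dim signal, and 95% of 361 such genes had a 6-array mean below 5.06. All arrays of ADH6 lay under that value, whereas all arrays of ADH1C lay above it. Mean signals were brighter than those of 99.7% of olfactory receptor genes for ADH1C, 96.4% for ADH1A, 76.7% for ADH6, 69.3% for ADH4, 59.6% for ADH1B and 46.5% for ADH7. ADH1B, ADH4, ADH6 and ADH7 were thus not shown to be above background, and their log2 changes are differences of dim signal that do not size a change in RNA.

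ADH4, the class II gene, measured 4.35, 4.01 and 4.26 with control siRNA and 4.12, 4.01 and 3.89 with CTNNB1 siRNA. The groups overlapped, with a change of -0.20 ± 0.12 (SE; limma, adjusted p = 0.385). ADH7, the gene of the stomach and oesophagus, measured 3.88, 3.43 and 3.41 with control siRNA and 3.45, 3.38 and 3.64 with CTNNB1 siRNA. Control replicate 1 stood above the rest. The change of ADH7 was -0.08 ± 0.14 (adjusted p = 0.793), and without control replicate 1 it was 0.07.

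ADH5, the formaldehyde-clearing gene carried by nearly all cells, was brighter than every olfactory receptor gene, and its group means differed least of the 7 members. It measured 8.11, 8.16 and 8.41 with control siRNA and 8.18, 8.21 and 8.27 with CTNNB1 siRNA. The values of the CTNNB1 siRNA arrays lay inside the control range. Its change was -0.004 ± 0.11 (SE; limma, adjusted p = 0.988). The 95% confidence interval ran from -0.24 to 0.23 log2 units. The change of ADH1C lies outside it, but ADH1C was chosen for the size of its fall, so this is a description only.

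The genes on either side of the cluster were read to see whether neighbours moved with ADH1C and ADH6. Of 5 genes before ADH5 and 5 after ADH7 in the RefSeq gene table, 9 were measured, 1 rose, none fell and 8 did not pass. C4orf54 had no row of its own. Among all genes tested 2.07% rose and 2.65% fell, and 1 call among 9 genes is too few to compare with these shares. DAPP1, an adaptor protein gene of phosphoinositide signalling, rose from 6.36 ± 0.05 to 7.07 ± 0.17 (SD, n = 3 each), a change of 0.71 ± 0.11 (SE; limma, adjusted p = 0.00596), and passed with any 1 array left out. RAP1GDS1, an exchange factor for small GTPases, measured -0.46 ± 0.13 (adjusted p = 0.0791). RAP1GDS1 passed as a fall with the replicate number as a block (adjusted p = 0.0284), with a trended and robust variance (0.0266), with the dimmest 25% (0.0408) or 50% (0.0160) of genes removed, and without control replicate 2 (0.0386). METAP1, which trims the first methionine of new proteins, measured -0.32 ± 0.11 (adjusted p = 0.136; 0.0497 with the trended variance and 0.0403 with the dimmest 50% removed), and the tRNA methyltransferase gene TRMT10A -0.36 ± 0.16 (adjusted p = 0.246). EIF4E, which binds the mRNA cap, measured 0.30 ± 0.15 (adjusted p = 0.303). The other 4, STPG2, TSPAN5, C4orf17 and MTTP, had changes between -0.04 and 0.18.

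Within the cluster the members that fell were not adjacent. ADH1A and ADH1B lie between ADH6 and ADH1C in chromosome order and did not pass, and ADH7, next to ADH1C on the other side, did not pass either.

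**Figure D3:**
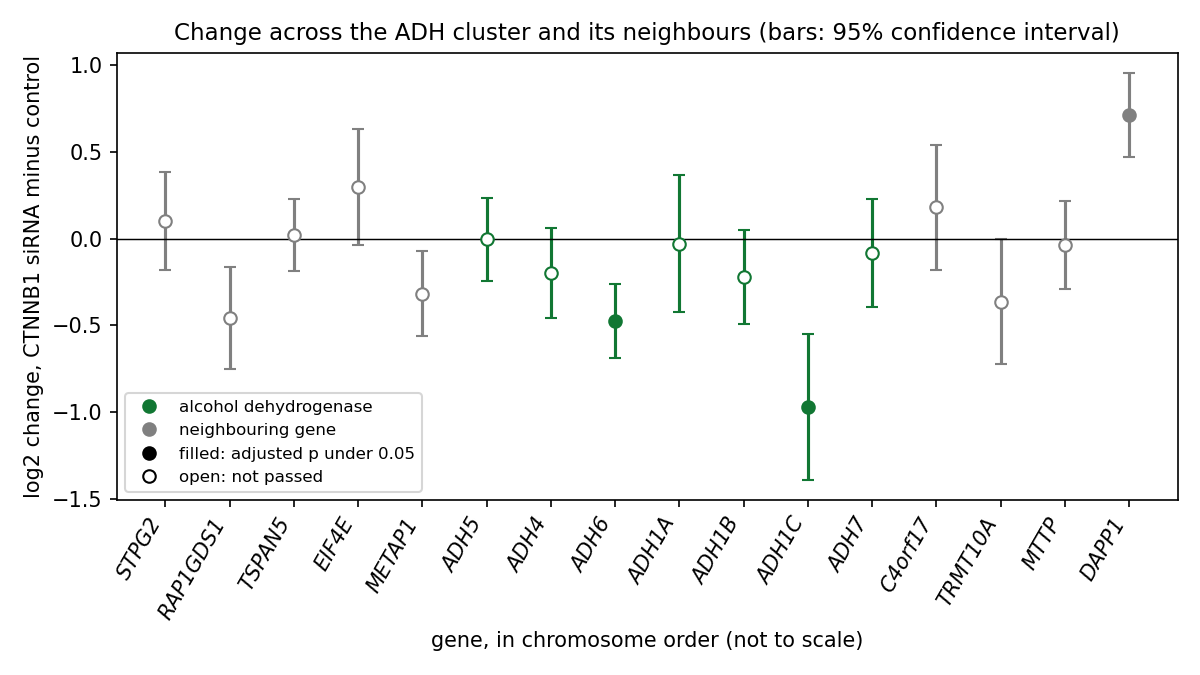
Log2 change, CTNNB1 siRNA minus control siRNA (vertical axis), with bars for the 95% confidence interval, for the 7 alcohol dehydrogenases (green) and 9 measured neighbours (grey) in chromosome order, not to scale. Filled points passed an adjusted p of 0.05: ADH6 and ADH1C fell and DAPP1 rose.

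Genes whose pattern over the 6 arrays was most like that of ADH1C were found by the root mean square difference between log2 values centred on each gene's mean. The nearest was DPH5, a diphthamide synthesis gene (0.21 log2 units), then ZNF578, a zinc finger gene (0.23), the histone gene H2BC7 (0.24), SAMD5 (0.24) and PTPN11, which encodes the phosphatase SHP2 (0.25). DPH5 fell by 0.82 ± 0.13 log2 units, H2BC7 by 0.96 ± 0.19, SAMD5 by 0.74 ± 0.12 and PTPN11 by 0.67 ± 0.13 (SE; limma, adjusted p = 0.00865, 0.0181, 0.00744 and 0.0197). The dim gene ZNF578 measured -0.57 ± 0.18 (adjusted p = 0.111). These genes were picked on the same 6 arrays for likeness to a gene chosen for its fall. Falls among them were therefore to be found, and their tests are no independent evidence. Without single arrays the calls of H2BC7 (control replicates 1 and 3) and PTPN11 (control replicates 1, 2 and 3 and CTNNB1 siRNA replicate 1) were lost, with adjusted p of up to 0.0775 and 0.0857. With all rows of the array tested together none of the 4 passed, with adjusted p of 0.0696 for DPH5, 0.113 for H2BC7, 0.0602 for SAMD5 and 0.104 for PTPN11.

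The family itself was less alike. ADH6 was the nearest member to ADH1C at 0.36, with 307 genes nearer, followed by ADH1B at 0.44, with 1696 nearer. ADH1A stood at 0.56 with 8475 genes nearer, although its promoter window is among the closest in sequence to that of ADH1C. Centred differences of this kind favour genes with changes of like size, and the same 6 arrays give all of them.

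The aldehyde dehydrogenases, which act on the products of the alcohol dehydrogenases, showed 1 fall among 19 measured genes, no rise and 18 others short of the threshold. This is close to the 4.72% of all genes tested that passed. The median change of the list was -0.11. ALDH1L2, a mitochondrial folate enzyme of this family, measured 7.86, 7.70 and 7.56 with control siRNA and 6.96, 7.07 and 7.25 with CTNNB1 siRNA. The groups were apart, and it fell by 0.61 ± 0.12 log2 units (SE; limma, adjusted p = 0.0166). It no longer passed when control replicate 1 (adjusted p = 0.0874), CTNNB1 siRNA replicate 1 (0.0821) or CTNNB1 siRNA replicate 2 (0.0548) was left out, or with all rows tested (0.0894).

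Members with the next smallest p did not pass. ALDH3A1, an enzyme of the cornea and stomach that is often high in tumours, measured -0.39 ± 0.10 (adjusted p = 0.0640), ALDH1B1, a mitochondrial acetaldehyde enzyme, -0.35 ± 0.11 (adjusted p = 0.118), and ALDH3B1 0.28 ± 0.11 (adjusted p = 0.177). ALDH3A1 passed with median centring (limma, adjusted p = 0.0430) and with a trended and robust variance (0.00677). It also passed after removal of the dimmest 25% (adjusted p = 0.0326) or 50% (0.0123) of genes. ALDH1B1 passed with the dimmest 50% removed (adjusted p = 0.0317). ALDH2, the main acetaldehyde-clearing enzyme, measured -0.15 ± 0.10 (adjusted p = 0.435). The retinal-oxidising ALDH1A1, a widely used stem cell marker, went from 13.02 to 12.99, a change of -0.03 ± 0.10 (adjusted p = 0.884). Both were named after their values were seen.

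Retinol is another substrate of alcohol dehydrogenases, and no gene of 28 measured in the retinoid list was called by limma, where 1 had an unadjusted p under 0.05. That gene was BCO1, which splits beta-carotene, at 0.38 ± 0.11 (adjusted p = 0.0761). RBP7, a retinol-binding protein gene, measured -0.21 ± 0.11, the retinol dehydrogenase gene SDR16C5 0.36 ± 0.19 and RDH13 0.19 ± 0.11, with adjusted p between 0.302 and 0.358. The list median was 0.08, and 22 of 28 changes were above 0. Of all 18417 genes tested 4.72% were called, 3746 had an unadjusted p under 0.05 and 9425 had a change above 0. BCO1 passed with the dimmest 25% (limma, adjusted p = 0.0403) or 50% (0.0162) of genes removed, and with a trended and robust variance (0.0355).

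Other enzymes of alcohol and carbonyl metabolism gave 2 rises and no fall among 19 measured genes, with a median change of -0.08. Among all genes tested 2.07% rose and 2.65% fell. HPGD, which inactivates prostaglandins by oxidising a hydroxyl group, measured 9.02, 9.12 and 9.26 with control siRNA and 9.88, 9.62 and 10.05 with CTNNB1 siRNA. It rose by 0.72 ± 0.13 log2 units (SE; limma, adjusted p = 0.0117), and it no longer passed when control replicate 1 (adjusted p = 0.0629) or CTNNB1 siRNA replicate 1 (0.0656) was left out, or with all rows tested (0.0770). DHRS2, a mitochondrial reductase gene, rose by 0.60 ± 0.14 (adjusted p = 0.0459), close to the threshold. Its call was lost under quantile normalization, cyclic loess and median centring and without any 1 array except control replicate 3, with adjusted p of up to 0.138 without control replicate 1, and with all rows tested (0.165). ADHFE1, an iron-dependent alcohol dehydrogenase of another family, measured 0.35 ± 0.11 (adjusted p = 0.106) and DHRS1 0.35 ± 0.13 (adjusted p = 0.176). CYP2E1, the microsomal ethanol oxidase, measured 0.08 ± 0.10 and catalase, CAT, -0.07 ± 0.10, with adjusted p of 0.732 and 0.745; these were named after their values were seen.

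In the glutathione and formaldehyde list, which holds the partners of ADH5, no gene of 17 was called by limma and 2 had an unadjusted p under 0.05. These were GCLC, of the first step of glutathione synthesis, at -0.33 ± 0.11 (adjusted p = 0.120) and the peroxidase gene GPX1 at -0.29 ± 0.11 (adjusted p = 0.171). The value of GPX1 is that of its brightest row, and with the mean of all its rows it was -0.11 (adjusted p = 0.597). GCLC passed with a trended and robust variance (adjusted p = 0.0420) and after removal of the dimmest 50% of genes (0.0330). HAGH measured 0.16 ± 0.09 and GCLM -0.17 ± 0.10. ESD, which completes the route from formaldehyde to formate, measured -0.22 ± 0.13 (adjusted p = 0.413) and was named after its value was seen. The list median was -0.04, and 4.72% of all genes tested were called.

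Transcription factors known from liver and gut genes were read because several of them bind class I promoters. Of 20 measured, 1 rose, none fell and 19 stayed short of the threshold. This is close to the 4.72% of all genes tested that passed. The list median was 0.08. NR5A2, a nuclear receptor of liver and gut, measured 7.66, 7.69 and 7.82 with control siRNA and 8.22, 8.24 and 8.47 with CTNNB1 siRNA, and rose by 0.58 ± 0.11 log2 units (SE; limma, adjusted p = 0.0140). The call was lost without control replicate 1 (adjusted p = 0.0764) and with all rows tested (0.0754). HLF, a liver factor of the PAR family, measured -0.47 ± 0.14 (adjusted p = 0.0806), and passed as a fall with the replicate number as a block (0.0493) or the dimmest 25% of genes removed (0.0417). USF1, which binds the E-box CACGTG, measured 0.32 ± 0.10 (adjusted p = 0.0939; 0.0393 with the trended variance and 0.0237 with the dimmest 50% removed) and ONECUT2 0.25 ± 0.11 (adjusted p = 0.254).

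**Figure D4:**
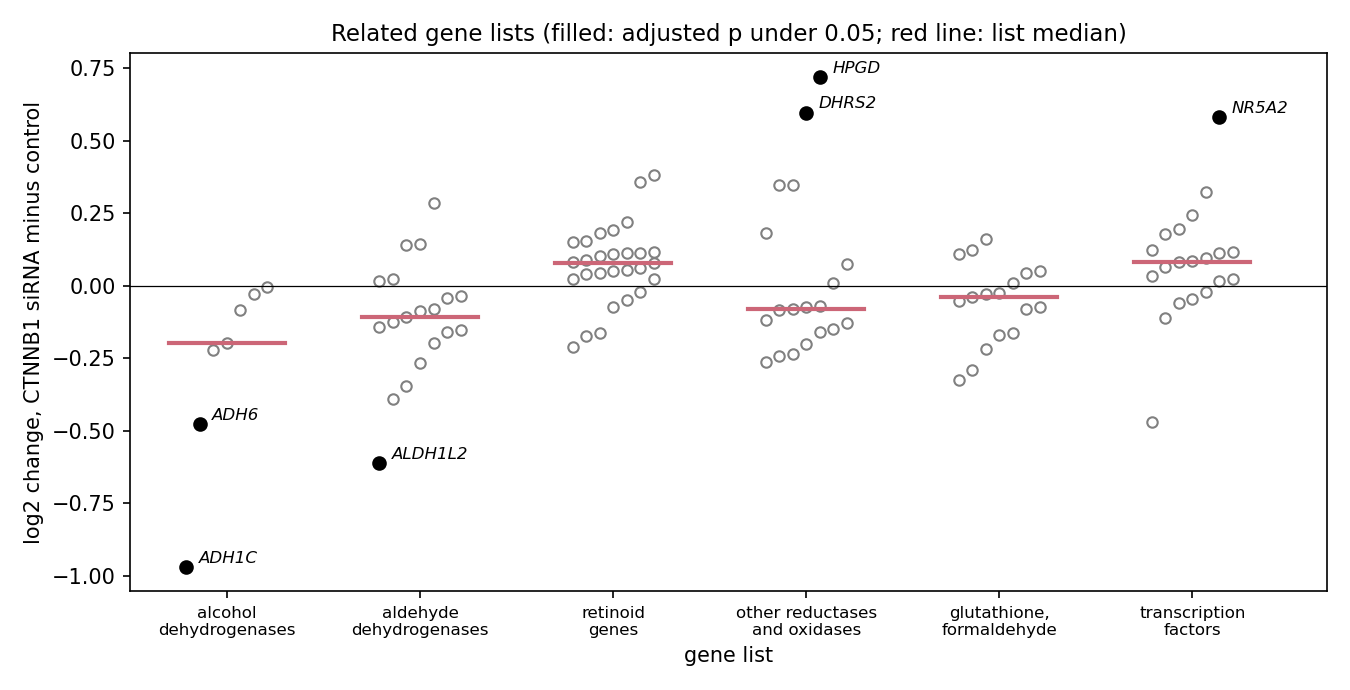
Log2 change, CTNNB1 siRNA minus control siRNA (vertical axis), of every measured gene in 6 lists (horizontal axis), with filled, named points for an adjusted p under 0.05 and a red line at each list's median. ADH1C and ADH6 lie lowest among the alcohol dehydrogenases, and the list medians run from -0.20 to 0.08.

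The labelled cell type was checked beside these results. Epithelial markers were bright, with EPCAM at 11.78 and KRT8 at 13.57 with control siRNA, and 15 of 17 epithelial and gastric genes lay above the level that 95% of olfactory receptor genes stayed under. GKN1 and GKN2, of gastric surface cells, did not, at 2.61 and 2.58. Of all 18417 genes tested 13653 lay above the same level, so such counts do not by themselves identify a cell type. TFF1 rose by 1.15 ± 0.11 and CLDN4 by 0.61 ± 0.10 log2 units (SE; limma, adjusted p = 0.000314 and 0.00763).

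Hepatocytes are the cells richest in class I enzymes. Of 15 hepatocyte markers 6 lay above that level, among them APOA1 at 6.80, SERPINA1 at 6.40 and FGB at 6.32 with control siRNA. ALB, at 3.11, and CYP3A4, at 2.76, lay below it. The list's median signal per array ran from 4.84 to 4.93 with control siRNA and from 4.88 to 5.05 with CTNNB1 siRNA. HP, a haptoglobin gene that inflammation induces, rose by 0.75 ± 0.13 (adjusted p = 0.0129) from a dim 2.33, and FGB measured -0.55 ± 0.15 (adjusted p = 0.0654). Fibroblast, endothelial and adipocyte markers gave no call by limma among 15, with 7 above that level, 0 at an unadjusted p under 0.05, and array medians of 4.72 to 5.14 and 4.74 to 5.42. Leukocyte markers gave 1 rise among 13, CD68 by 0.95 ± 0.14 (adjusted p = 0.00547), with 6 above that level, and array medians of 4.77 to 5.13 and 4.92 to 5.44. With control siRNA LYZ measured 12.36, CD68 8.98, TYROBP 6.71 and NKG7 6.51, whereas PTPRC measured 2.58. Among all genes tested 4.72% were called. The part of other cells in the alcohol dehydrogenase values was not tested.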

How the data were processed

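RNA from 6 samples, 500 ng each, was labelled and hybridised to Affymetrix Human Gene ST arrays. The authors deposited log2 values. These came from RMA in Affymetrix Expression Console 1.1, as far as the submitters' processing notes tell. Their range showed the log2 scale. The build is not given in the sources used here. RMA evens out probe distributions between arrays before summarising them, which can hide a shift common to most genes. The number of arrays limits the precision.

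Of 33297 rows, 19460 had 1 gene symbol in the platform annotation, 1754 several and 12083 none there, which left 18417 genes. The test was limma's (version 3.58.1, R 4.3.3; lmFit and eBayes, two-sided), Benjamini-Hochberg adjusted over these 18417 genes, at 0.05. "Rose" and "fell" mean past this threshold, and errors of changes are standard errors of the fit. Promoters were aligned with Biopython 1.88 (global, match 1, mismatch -1, gap -2 and -0.5).

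Named are CTNNB1, the 7 members, called genes and the 4 smallest p of each related list, 5 neighbours on either side, and the 5 genes most like ADH1C. Markers and IFIT1 are named beside these. Members and lists were chosen with earlier results of these data known. Arrays within a group all differed (SD of differences 0.203 to 0.262). Same-numbered replicates deviated from their group means with correlations of -0.019, 0.329 and 0.223. Replicates 2 and 3 of opposite groups had -0.293 and -0.272, and the other unlike numbers lay between -0.068 and 0.078. These values do not settle whether the numbers pair the samples. The main fit took no pairs. Other settings tried were a replicate block, 3 scalings, a floor that drops the dimmest 25% or 50% of genes, array weights, a variance both trended and robust, the mean of all rows, all rows, a threshold of 0.10, and leaving out each array.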

Additional observations from a re-analysis of the deposited data

How the results depend on the processing

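ADH1C kept its direction under every setting that tested it, with changes from -1.09 to -0.77, and so did ADH6, from -0.53 to -0.44. The number of alcohol dehydrogenases called was 2 as deposited, 1 with the dimmest 25% of genes removed, where 3 were left to test, and 0 with the dimmest 50% removed, where 1 was left. It was also 0 with all rows tested, and 0 to 1 with single arrays left out. All genes called, 870 as deposited, numbered 1483 and 1861 under those filters, 1622 with a trended and robust variance, 252 with all rows, 1668 at a threshold of 0.10, and 283 to 877 with single arrays left out. Aldehyde dehydrogenases called, 1 as deposited, numbered 2 with median centring, the 25% filter, the trended variance or the 0.10 threshold, 3 with the 50% filter, 0 with all rows, and 0 to 1 with single arrays left out. Retinoid genes called, 0 as deposited, numbered 1 under both filters, the trended variance and the 0.10 threshold. Filters and all rows alter the number of genes tested; the cause of the other moves was not tested.

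The replicate block gave 1177 called genes and kept 2 alcohol dehydrogenases, ADH1C with an adjusted p of 0.0389 and ADH6 of 0.0312. It brought HLF (adjusted p = 0.0493) and RAP1GDS1 (adjusted p = 0.0284) past the threshold and changed no other call of a named gene. Of 42 named genes, no called gene changed sign. Signs turned for ADH5 under quantile normalization (0.037), cyclic loess (0.050) and array weights (0.036), for ADH1A under array weights (0.030), and for TSPAN5 under quantile normalization (-0.012), cyclic loess (-0.023) and median centring (-0.017). With single arrays left out changes ran from -0.063 to 0.087 for ADH5, -0.16 to 0.18 for ADH1A, -0.16 to 0.070 for ADH7, -0.037 to 0.20 for STPG2, -0.013 to 0.050 for TSPAN5, -0.0015 to 0.31 for C4orf17 and -0.12 to 0.043 for MTTP. Rises made up 382 of 870 calls as deposited and 486 of 893 under cyclic loess. Median centring moved the median change of all genes from 0.01 to -0.03. Background calls per probe were not used here, so dim genes such as ADH6 rest on signal not shown to be above background.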
